A study of Mus musculus with 30 samples.

Results

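The microRNAs (miRNAs) described here are 7 mature miRNAs whose genes lie in the imprinted Dlk1-Dio3 region, mmu-miR-127, mmu-miR-329, mmu-miR-494, mmu-miR-434-3p, mmu-miR-411, mmu-miR-379 and mmu-miR-541, measured in mouse heart. They were chosen by name, as the rows of the deposited tables that carry these names, and make up 7 of the 1079 mouse miRNAs on the array. All mice were female C57BL/6 animals that arrived at an age of 5 to 6 weeks, and each received 1 instillation into the trachea of a 40 µl suspension followed by 150 µl of air. The exposed mice received 162 µg of Printex 90, a carbon black of nanosized particles, and the vehicle mice received the same saline with 10% acellular lavage fluid and 0 µg. Hearts, as sections with both ventricles, were taken on day 1 (4 vehicle and 6 Printex 90 mice), day 3 (6 and 5) or day 28 (4 and 5). The comparisons ask whether miRNAs in the heart differ after particles reach the lung, and whether such differences change with time. The labels give no age at death and list no untreated mice. The file of the mouse Printex 90 day 3 replicate 3 held names without signals, so 29 arrays, 1 per mouse, were analysed and that group had 4.

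The Dlk1-Dio3 region is imprinted, which means that a gene is read from the chromosome of only 1 parent. The protein genes Dlk1, Rtl1 and Dio3 are read from the father's chromosome, and the noncoding RNAs Meg3, Rian and Mirg and the miRNAs from the mother's, in long transcripts that are cut into many hairpins. The miRNAs are known for high levels in embryo, placenta and brain and for low levels in most adult tissues, the heart among them. miRNAs act mainly through the seed, the bases near the 5′ end that pair with target mRNAs. miR-127 and miR-434 are made from the strand opposite to Rtl1 and can guide the cleavage of its mRNA, and miR-379, miR-411, miR-329, miR-494 and miR-541 belong to the large group of hairpins farther along.

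The mature sequences are shown because array signals are read by sequence and because the seeds tell which of these neighbours could share targets. All 7 names were matched to RefSeq entries of the GRCm38.p6 build, and the capitals mark bases 2 to 8, the seed. The array names are older and, except for mmu-miR-434-3p, carry no arm, so the arm follows the naming history; the files give no probe sequences. In the order of their genes along the + strand of chromosome 12, the sequences read 5′ to 3′ as follows.
mmu-miR-127 (3p arm): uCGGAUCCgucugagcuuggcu
mmu-miR-434-3p: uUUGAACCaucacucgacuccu
mmu-miR-379 (5p arm): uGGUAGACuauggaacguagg
mmu-miR-411 (5p arm): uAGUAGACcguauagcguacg
mmu-miR-329 (3p arm): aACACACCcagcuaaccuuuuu
mmu-miR-494 (3p arm): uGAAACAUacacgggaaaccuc
mmu-miR-541 (5p arm): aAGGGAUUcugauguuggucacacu
None of the 21 pairs shared a seed (0 pairs). The closest pair was mmu-miR-411 and mmu-miR-379, whose seeds match at 6 of 7 positions and differ by the substitution A2G, written from mmu-miR-411 to mmu-miR-379 with positions counted from 1 at the 5′ end. Among the 1679 mature mouse miRNAs of the table, mmu-miR-329 shared its seed with mmu-miR-362-3p, mmu-miR-411 with mmu-miR-7229-5p and mmu-miR-379 with mmu-miR-1193-5p, and the other 4 shared theirs with none. The share of G and C bases ran from 40.9% in mmu-miR-329 to 59.1% in mmu-miR-127.

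The mature bases of mmu-miR-127 lie at chr12:109592888-109592909 and those of mmu-miR-434-3p at chr12:109594565-109594586, both within the span of Rtl1. mmu-miR-379 (chr12:109709065-109709085), mmu-miR-411 (chr12:109710190-109710210), mmu-miR-329 (chr12:109713541-109713562) and mmu-miR-494 (chr12:109715367-109715388) lie between the annotated ends of Rian and Mirg. mmu-miR-541 (chr12:109742422-109742446) lies within Mirg. From the start of the first hairpin to the end of the last, the 7 genes span 149.7 kb of the 828.6 kb between the outer ends of Dlk1 and Dio3.

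The arrays showed 18.4% to 27.5% of their spots well above background, by the flag of the scanner software, and 231 to 339 mouse miRNAs detected. No spot was saturated (0 spots), and the 75th percentile used for scaling differed 2.34-fold between arrays. The 5 heart muscle markers (miR-1a, miR-133a, miR-133b, miR-208a-3p and miR-499) were detected on all 29 arrays. miR-124 and miR-9 of neurons, miR-375 of endocrine cells, and miR-200a, miR-200b, miR-200c and miR-141 of epithelium were detected on 0. The neuronal marker miR-128, the endothelial miR-126-3p, the red cell miR-451 and the fibroblast miRNAs miR-199a-5p and miR-214 were detected on 29. The skeletal muscle miR-206 was detected on 17 arrays and the liver miR-122 on 26. In whole tissue, fewer cells of a type and less RNA per cell cannot be told apart.

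Of the 7 miRNAs, 4 gave signals above background in these hearts and 3 did not. Each of the 7 had 2 probes of 20 spots, and detection on an array meant that, for either probe, the scanner software had flagged a share of 0.5 or more of the spots as well above background. mmu-miR-494 was detected on 29 of 29 arrays, mmu-miR-127 on 26, mmu-miR-434-3p on 19 and mmu-miR-329 on 14. mmu-miR-411, mmu-miR-379 and mmu-miR-541 were detected on 0 arrays, so for these 3 the data give only an upper bound in every group. For comparison, detection on 1 or more arrays was seen for 373 of the 1079 mouse miRNAs, and on all arrays for 211.

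The map of detection along the region shows that detected and undetected neighbours lay side by side. mmu-miR-494, on all arrays, and mmu-miR-411, on 0, come from hairpins 122.5 and 117.3 kb from the start of Mir127.

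**Figure D1:**
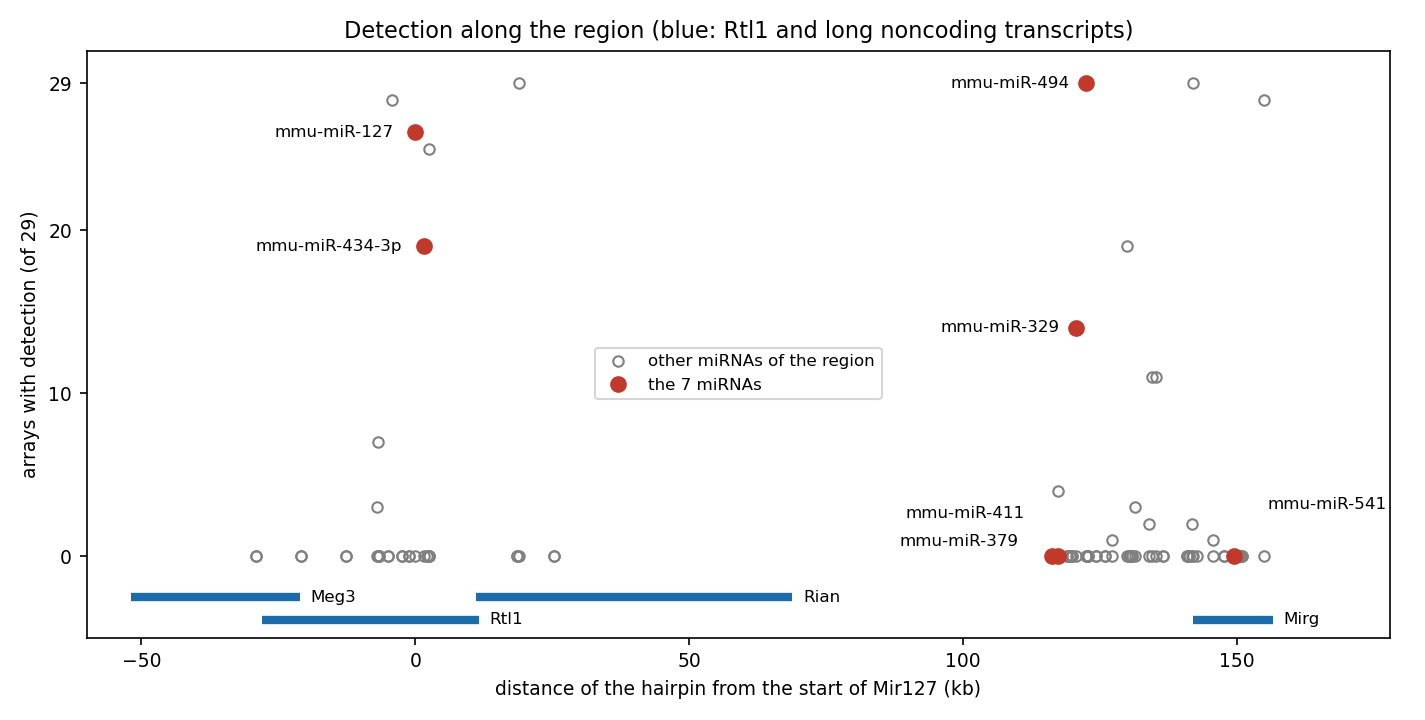
Number of arrays, of 29, on which each miRNA of the region was detected (vertical axis) against the distance of its hairpin from the start of Mir127 in kb (horizontal axis); filled red points are the 7 miRNAs, open grey points the other mature miRNAs, and blue bars the spans of Meg3, Rtl1, Rian and Mirg. mmu-miR-494 stands at 29 arrays beside mmu-miR-329 at 14 and mmu-miR-379 and mmu-miR-411 at 0.

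The 2 probes of a miRNA did not answer alike. Over all arrays, the 2 probes of mmu-miR-494 had 99.8% and 75% of their spots well above background, and both entered its value. For mmu-miR-127 the shares were 84.5% and 0.517%, for mmu-miR-434-3p 57.6% and 12.9%, and for mmu-miR-329 47.6% and 11.6%, and only the first probe of each was detected often enough to be used. For mmu-miR-411 they were 2.07% and 0.345%, for mmu-miR-379 1.55% and 0.345%, and for mmu-miR-541 0.172% for either probe, which is 1 spot of 580. With detection by any spot, mmu-miR-411 was called on 11 arrays, mmu-miR-379 on 5 and mmu-miR-541 on 2. With all spots required, mmu-miR-494 was called on 28 arrays, mmu-miR-127 on 16, mmu-miR-329 on 5 and mmu-miR-434-3p on 1. Of 57 viral miRNAs, by the main rule, 10 passed on 1 array or more and 2 on all.

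**Figure D2:**
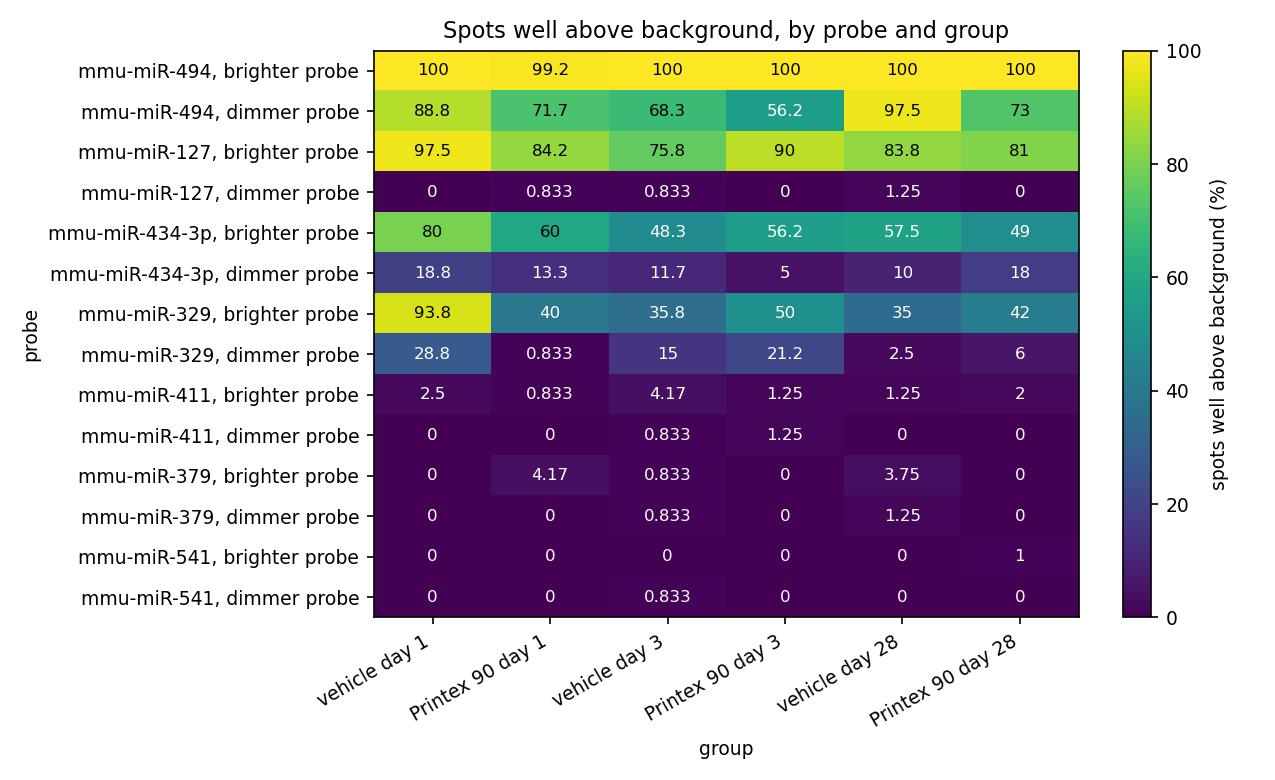
Percent of a probe's spots well above background in each of the 6 groups, for the 14 probes of the 7 miRNAs, ordered within a miRNA by mean signal; colour and number give the percent. The brighter probe of mmu-miR-329 stood at 93.8% in vehicle mice on day 1 and between 35% and 50% in the other 5 groups.

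For the undetected miRNAs the signals lay below the floor. The lowest signal that counted as detected, which served as the floor, was 16.9 (4.08 on the log2 scale). Group means of the probe with the higher signal of mmu-miR-379 ran from 10.2 ± 2.18 (SD, n = 5, Printex 90 day 28) to 13.9 ± 4.38 (n = 6, Printex 90 day 1). Those of mmu-miR-411 ran from 8.96 ± 0.822 (n = 5, Printex 90 day 28) to 12 ± 2.72 (n = 6, Printex 90 day 1). Those of mmu-miR-541 ran from 0.844 ± 2.5 (n = 6, Printex 90 day 1) to 1.86 ± 0.566 (n = 4, vehicle day 1), and these 3 miRNAs were not tested. No group mean of these 3 miRNAs reached the floor, and single arrays passed it for 1 probe of mmu-miR-379 (3 arrays) and 1 of mmu-miR-411 (1 array).

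None of the 4 detected miRNAs passed the threshold for a difference between Printex 90 and vehicle mice, on any day or over the days. The differences below are Printex 90 minus vehicle on the log2 scale, from 1 limma model over the 6 groups, with a threshold of 0.05 on the adjusted p. On day 1, 0 of the 4 and 0 of all 306 tested miRNAs (0%) passed, with 2 at an unadjusted p under 0.05. On day 3 it was 0 of 4 and 0 of 306 (0%), with 1 at an unadjusted p under 0.05, and on day 28 also 0 of 4 and 0 of 306 (0%), with 1. For the mean over days it was 0 of 4 and 0 of 306 (0%), with 0. No unadjusted p of the 4 miRNAs was under 0.05 in these comparisons. The medians of the 4 were -0.10 on day 1, -0.010 on day 3 and -0.013 on day 28, beside -0.066, 0.031 and 0.014 over all 306. Scaling on all probes moved the median over all 306 to 0.11 on day 1 and to -0.16 on day 28, so signs this close to 0 depend on the scaling.

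mmu-miR-494 was detected on every array. On day 1 the 4 vehicle mice had log2 signals of 5.76, 5.70, 5.75 and 5.64, and the 6 Printex 90 mice ran from 4.98 over a median of 5.69 to 6.16. The exposed mice lay on both sides of the vehicle mice, and their SD was 0.42 against 0.057. On day 3 the 6 vehicle mice ran from 5.38 over 5.70 to 5.99, and the Printex 90 mice had 5.28, 5.21, 5.61 and 5.803. Of these, 3 of 4 lay below the vehicle mean and the groups overlapped. On day 28 the vehicle mice had 6.12, 5.64, 5.85 and 5.77 and the Printex 90 mice 5.34, 6.10, 5.53, 5.62 and 5.82, again overlapping, with 4 of 5 exposed mice below the vehicle mean. The differences were -0.083 ± 0.18 (SE) on day 1, -0.23 ± 0.18 on day 3 and -0.16 ± 0.19 on day 28. Over the days the mean was -0.16 ± 0.10, with a 95% interval from -0.37 to 0.057 (unadjusted p = 0.142, limma adjusted p = 0.994). The value on day 1 turned above 0 under 4 other scalings or corrections and, at 0.046 ± 0.16, without Printex 90 day 1 replicate 5, and that on day 3 under 1.

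mmu-miR-127, which lies opposite Rtl1, had group means between 5.04 and 5.18. The vehicle mice of day 1 had 5.16, 5.11, 5.17 and 5.28, and the 6 Printex 90 mice ran from 4.81 over 5.15 to 5.53. On day 3 the vehicle mice ran from 4.89 over 5.06 to 5.96 and the Printex 90 mice had 5.51, 4.67, 4.85 and 5.13. The value of 5.96, in vehicle day 3 replicate 5, stood apart from the other 5 mice of its group, which lay between 4.89 and 5.11. On day 28 the vehicle mice had 4.79, 4.95, 5.19 and 5.59, and the Printex 90 mice 4.83, 5.40, 4.99, 5.01 and 5.15. The groups overlapped on each day. The differences were -0.0098 ± 0.19 (SE), -0.14 ± 0.19 and -0.053 ± 0.19, with adjusted p-values from limma of 0.978, 0.999 and 0.98. Without vehicle day 3 replicate 5 the difference on day 3 was 0.018 ± 0.16. The mean over days was -0.067 ± 0.11, with a 95% interval from -0.29 to 0.16.

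**Figure D3:**
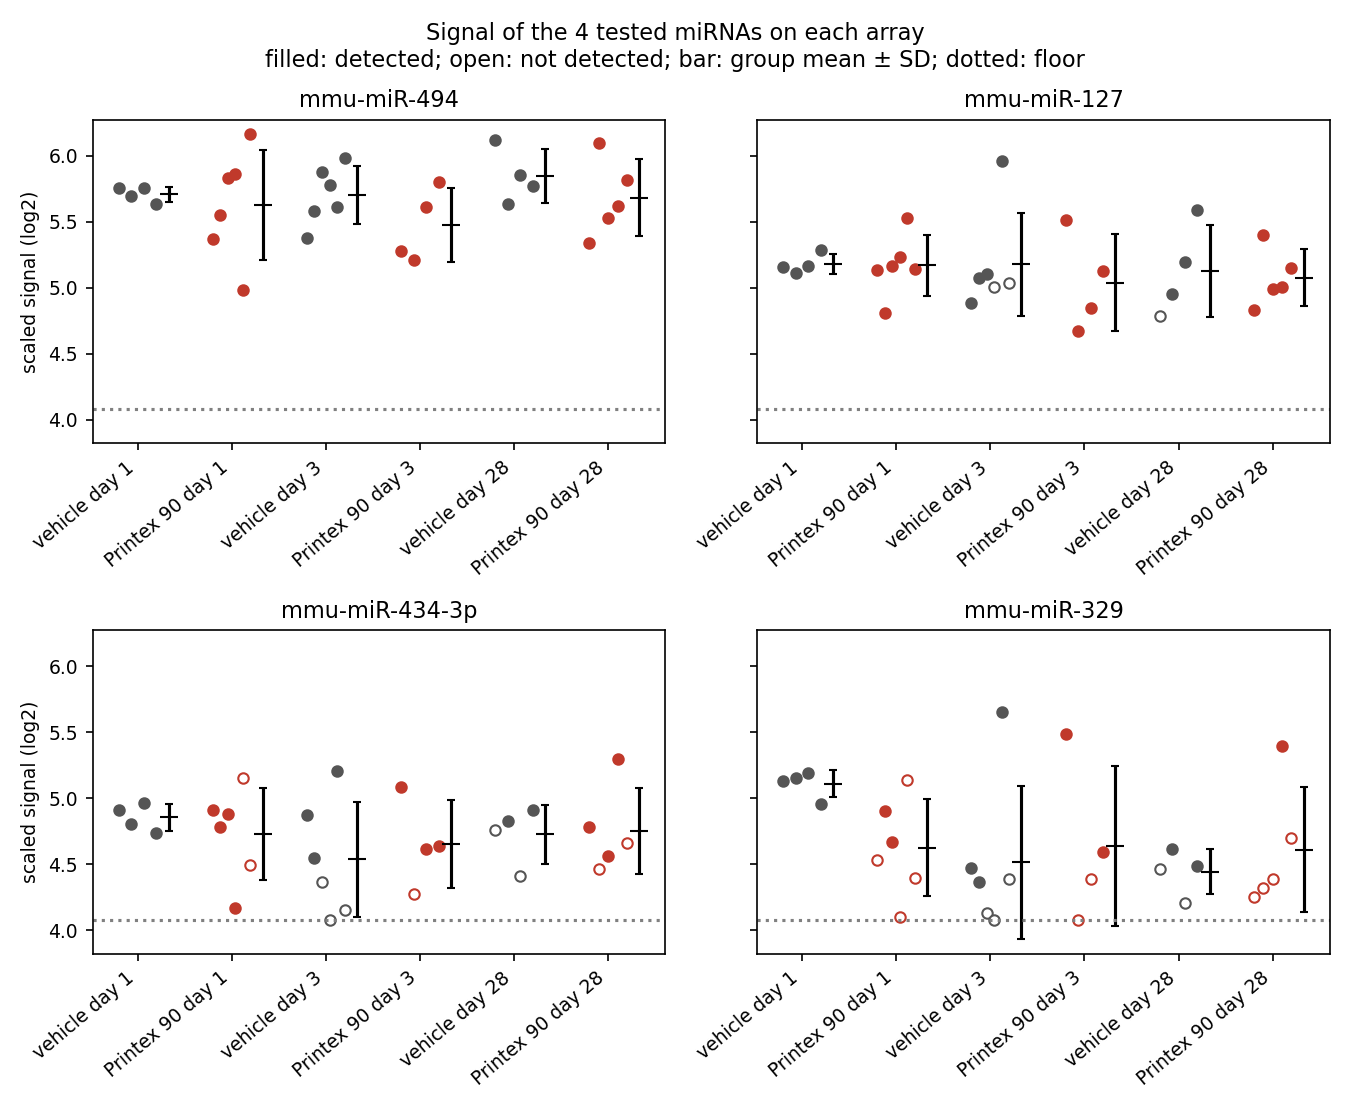
Scaled log2 signal of the 4 tested miRNAs on each of 29 arrays, by group (grey, vehicle; red, Printex 90); filled points are detected, open points not, black bars give the group mean ± SD and the dotted line the floor of 4.08. The 4 vehicle mice of day 1 lie close together in every panel, and for mmu-miR-329 between 4.96 and 5.19, above the means of all other groups.

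mmu-miR-434-3p, from the hairpin next to Mir127, lay near the floor. It was detected on 4 arrays in each day 1 group and on fewer in every other group. The filter needed 4, so it passed only through day 1. On day 1 the vehicle mice had 4.91, 4.81, 4.96 and 4.74 and the Printex 90 mice ran from 4.17 over 4.83 to 5.15. Detection and scaled level did not always go together on arrays of different brightness. The Printex 90 mouse at 5.15 (replicate 5) was not detected and came from an array with 19.2% of spots well above background, while the one at 4.17 (replicate 4, 22.4%) was detected. On day 3 the vehicle mice ran from the floor of 4.08 over 4.46 to 5.21 and the Printex 90 mice had 5.09, 4.28, 4.62 and 4.63. On day 28 the vehicle mice had 4.76, 4.83, 4.41 and 4.91 and the Printex 90 mice 4.79, 4.46, 4.56, 5.29 and 4.66. The groups overlapped on all 3 days. The differences were -0.12 ± 0.21 (SE), 0.12 ± 0.21 and 0.028 ± 0.21, and 0.0069 ± 0.12 over the days, with a 95% interval from -0.24 to 0.26.

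mmu-miR-329 gave the largest exposure difference of the 4, on day 1, and it did not pass the threshold. The 4 vehicle mice of that day had 5.13, 5.15, 5.19 and 4.96, all detected. No other group had detection on 4 arrays, so mmu-miR-329 passed the filter only through these 4 mice. The filter thus favoured a high vehicle level on day 1 and an exposure difference below 0. The 6 Printex 90 mice ran from 4.10 over 4.60 to 5.14, and 2 of 6 were detected. Of the exposed mice, 5 of 6 lay below the vehicle mean, and the groups overlapped. The difference was -0.49 ± 0.28 (SE), with a 95% interval from -1.05 to 0.082 (unadjusted p = 0.0901, limma adjusted p = 0.742). Within the 4 slides the difference ran from -0.81 to -0.19. Each slide held 1 vehicle and 1 or 2 exposed mice of day 1, so each of these values rests on a single vehicle array. Those vehicle mice are the ones through which mmu-miR-329 passed the filter. The array share of spots well above background was 25.7% ± 1.34 (SD, n = 4) in the vehicle mice and 23.6% ± 3.35 (n = 6) in the exposed mice; with that share in the model the difference was -0.40 ± 0.28. With normexp background correction, which starts from other pixel values and adds an offset of 50 before scaling, it was 0.00087 ± 0.15, and with the deposited series table -0.088 ± 0.078. The probe had a median signal of 22.4 in the main scaling, and the offset and the background correction were not tested apart. Both SEs were below the 0.28 of the main fit, so these sizes are not directly comparable with -0.49. With the total gene signal of the scanner software it was -1.12 ± 0.51. The first and the last of these 3 values were the ends of its range over all alternatives fitted, of which none passed (smallest limma adjusted p = 0.456).

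On the later days the differences of mmu-miR-329 were above 0 and did not pass. On day 3 the vehicle mice ran from 4.08 over 4.37 to 5.65 and the Printex 90 mice had 5.49, 4.08, 4.39 and 4.59. The 5.65 again came from vehicle day 3 replicate 5, and the other 5 mice lay between 4.08 and 4.47. On day 28 the vehicle mice had 4.46, 4.62, 4.21 and 4.49 and the Printex 90 mice 4.25, 4.32, 4.39, 5.40 and 4.70. The differences were 0.12 ± 0.28 (SE) and 0.17 ± 0.29, with limma adjusted p-values of 0.999 and 0.906. On day 3 the difference was 0.35 ± 0.24 without vehicle day 3 replicate 5, -0.16 ± 0.27 without Printex 90 day 3 replicate 1 and 0.52 ± 0.51 with the total gene signal. Over the days the mean was -0.065 ± 0.16, and 0.011 ± 0.13 without vehicle day 3 replicate 5. Detection was 3 of 6 vehicle and 2 of 4 exposed mice on day 3, and 2 of 4 and 1 of 5 on day 28.

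**Figure D4:**
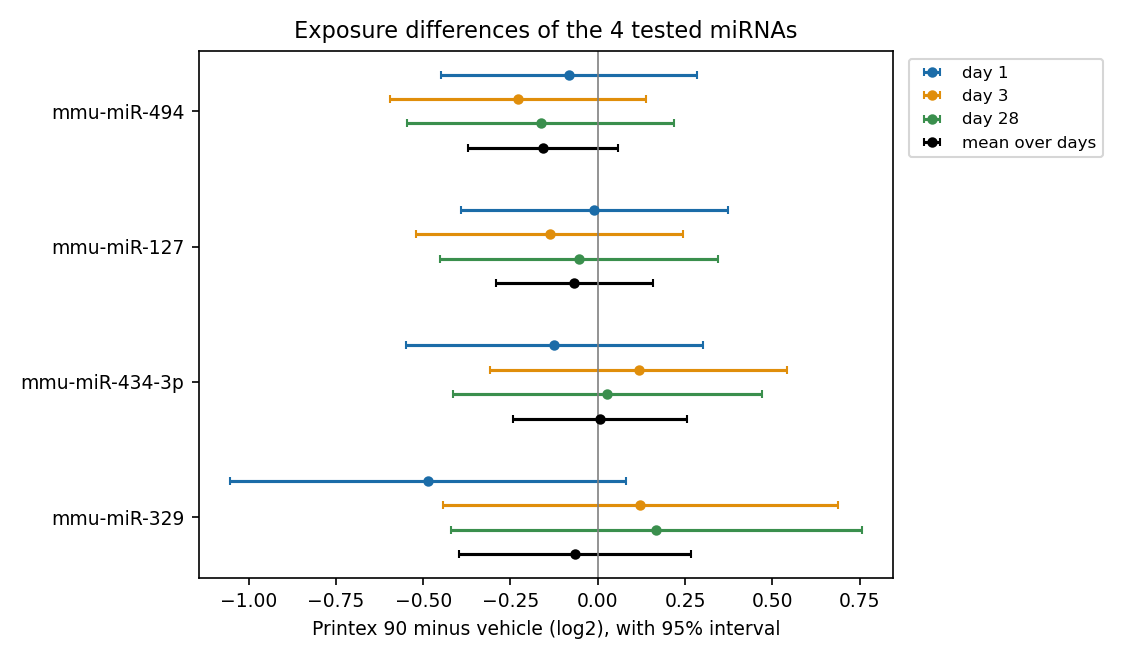
Printex 90 minus vehicle on the log2 scale (horizontal axis) for the 4 tested miRNAs, by day and averaged over days; points are fitted differences and bars 95% intervals. All 16 intervals include 0, and the widest are those of mmu-miR-329, on day 1 from -1.05 to 0.082.

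None of the 4 miRNAs passed the test of whether the exposure difference changed between days. Between day 3 and day 1, 0 of 4 and 0 of 306 (0%) passed, with 2 at an unadjusted p under 0.05 in limma. Between day 28 and day 1 it was 0 of 4 and 0 of 306 (0%), with 3, and between day 28 and day 3 also 0 of 4 and 0 of 306 (0%), with 1. For mmu-miR-329 the exposure difference was higher on day 3 than on day 1 by 0.61 ± 0.39 (SE; limma adjusted p = 0.735), and by 0.84 ± 0.33 without vehicle day 3 replicate 5 (adjusted p = 0.734). Over the alternatives this value ran from -0.0038 with normexp to 1.63 ± 0.73 with the total gene signal (limma adjusted p = 0.743). It was higher on day 28 than on day 1 by 0.65 ± 0.40 (limma adjusted p = 0.484), with a range from 0.083 with the series table to 1.24 with the total gene signal. For mmu-miR-434-3p these values were 0.24 ± 0.29 and 0.15 ± 0.30. Between day 28 and day 3 the named values were 0.084 ± 0.27 for mmu-miR-127 and -0.090 ± 0.30 for mmu-miR-434-3p. These comparisons share the mice of a day with those above. For mmu-miR-329 those against day 1 also draw on the vehicle group through which it passed the filter, which favoured values above 0. Those of mmu-miR-434-3p against day 1 draw on the day 1 groups, the only ones through which it passed.

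Within vehicle mice, the 4 mice of day 1 had the highest mean of mmu-miR-329 of any group. They were also the only group through which mmu-miR-329 passed the filter, which needed detection on 4 or more arrays of a group. The filter thus favoured a high level in these mice, and the values of mmu-miR-329 against day 1 below are not independent of it. mmu-miR-434-3p passed it only through the vehicle mice (4 of 4 detected) and Printex 90 mice (4 of 6) of day 1. Its values against day 1 are therefore not independent of the filter either. From day 1 to day 3 none of the 4 miRNAs passed, and of all tested miRNAs 0 of 306 (0%), with 18 at an unadjusted p under 0.05 in limma. mmu-miR-329 was at -0.60 ± 0.28 (SE; unadjusted p = 0.0404, adjusted p = 0.439) on day 3 against day 1, and mmu-miR-434-3p at -0.32 ± 0.21. Without vehicle day 3 replicate 5 the value of mmu-miR-329 was -0.82 ± 0.24, and it ran from -1.49 with the total gene signal to -0.018 with normexp. From day 1 to day 28 again 0 of 4 passed, beside 6 of 306 (1.96%). There mmu-miR-329 was at -0.67 ± 0.30 (limma adjusted p = 0.746) and mmu-miR-494 at 0.14 ± 0.20. The day 28 values of mmu-miR-329, between 4.21 and 4.62, did not overlap with the day 1 values, between 4.96 and 5.19, as was so for 16 of 306 miRNAs (5.23%). When only the 2 groups compared were fitted, the limma adjusted p of this difference was 0.037, the smallest over its alternatives, and the difference ran from -1.19 with the total gene signal to -0.066 with normexp background correction. From day 3 to day 28 it was 0 of 4 and 2 of 306 (0.654%), with mmu-miR-434-3p at 0.19 ± 0.21 and mmu-miR-494 at 0.14 ± 0.18.

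Ordered by group mean, mmu-miR-329 stood at 5.11 ± 0.10 (SD, n = 4) in vehicle mice on day 1, the group that let it past the filter. It followed at 4.64 ± 0.60 (n = 4, Printex 90 day 3), 4.62 ± 0.37 (n = 6, Printex 90 day 1), 4.61 ± 0.47 (n = 5, Printex 90 day 28), 4.51 ± 0.58 (n = 6, vehicle day 3) and 4.44 ± 0.17 (n = 4, vehicle day 28). The means of the last 5 lay between 4.44 and 4.64, with SDs from 0.17 to 0.60. For mmu-miR-494 the group means ran from 5.48 ± 0.28 (n = 4, Printex 90 day 3) to 5.85 ± 0.20 (n = 4, vehicle day 28). For mmu-miR-127 they ran from 5.04 ± 0.37 (n = 4, Printex 90 day 3) to 5.18 ± 0.074 (n = 4, vehicle day 1). Those of mmu-miR-434-3p ran from 4.54 ± 0.43 (n = 6, vehicle day 3) to 4.86 ± 0.10 (n = 4, vehicle day 1). The day 1 groups were the only ones through which mmu-miR-434-3p passed the filter. In the fit over all 6 groups, no pair of groups differed past the threshold for any of the 4 miRNAs in the comparisons made.

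Within Printex 90 mice none of the 4 passed between days either. From day 1 to day 3, 0 of 4 and 0 of 306 (0%) passed in limma, with 0 at an unadjusted p under 0.05, and mmu-miR-494 was at -0.15 ± 0.18 (SE) and mmu-miR-127 at -0.13 ± 0.19. From day 1 to day 28, 0 of 4 passed beside 4 of 306 (1.31%), with mmu-miR-127 at -0.094 ± 0.17 and mmu-miR-494 at 0.054 ± 0.17. From day 3 to day 28, 0 of 4 passed beside 1 of 306 (0.327%), with mmu-miR-494 at 0.21 ± 0.19 and mmu-miR-434-3p at 0.10 ± 0.21.

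The rest of the region was sparsely detected as well. The array carried 100 further mature miRNAs or arms of the Dlk1-Dio3 list, of which 17 were detected on at least 1 array and 2, mmu-miR-485* and mmu-miR-1188*, on all 29. Beside these, 373 of 1079 mouse miRNAs and 10 of 57 viral miRNAs were detected on at least 1 array, and 211 and 2 on all. The share for the list was thus close to that of the viral miRNAs, so detection alone does not show presence. Of the 107 names in all, 103 were matched by hairpin name to RefSeq genes between Dlk1 and Dio3 and 4 (both arms of miR-299 and of miR-496) to none. The matched names came from 53 hairpins, of which 20 gave at least 1 arm detected on at least 1 array. An asterisk marks the arm that was held to be the minor product when the array was named. From the hairpin of mmu-miR-411, which was detected on 0 arrays, the other arm mmu-miR-411* was detected on 4.

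Of these further miRNAs 7 were tested, and none of the 7 passed the threshold in any of the 13 comparisons. As the mean exposure difference over days, mmu-miR-3070b-3p was at 0.24 ± 0.23 (SE), mmu-miR-376c at 0.17 ± 0.54 and mmu-miR-3072* at 0.092 ± 0.095. mmu-miR-1188* was at 0.040 ± 0.19, mmu-miR-299* at 0.018 ± 0.12, mmu-miR-485* at 0.016 ± 0.22 and mmu-miR-136, another miRNA opposite Rtl1, at -0.024 ± 0.11. Their median was 0.040, beside -0.066 for the 4 and -0.00026 over all 306. From day 1 to day 3 in vehicle mice all 7 and all 4 of the named miRNAs were at values below 0. Their medians were -0.55 and -0.16, beside -0.037 over all 306, of which 186 were below 0. Of the 4, mmu-miR-127 was at -0.0028 ± 0.19 (SE) and mmu-miR-494 at -0.0059 ± 0.18, both close to 0. The other members, mmu-miR-329 and mmu-miR-434-3p, passed the filter only through vehicle day 1 and only through the day 1 groups. The filter thus favoured values below 0 for them. In that comparison mmu-miR-434-3p turned above 0, at 0.025 under quantile normalization and 0.056 under normexp, so the shared sign depends on the processing.

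mmu-miR-376c stood out by its spread. Its residual SD, the spread between mice of 1 group, was 1.5 on the log2 scale, the second highest of the 306 tested, beside 0.44 for mmu-miR-329, 0.33 for mmu-miR-434-3p, 0.29 for mmu-miR-127 and 0.28 for mmu-miR-494 and a median of 0.27. Among the 6 Printex 90 mice of day 1 it ran from 4.10 to 8.68, and in the 4 vehicle mice of day 28 from the floor of 4.08 to 7.43. It was detected on 19 of 29 arrays.

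How the miRNAs varied from mouse to mouse within groups was described by correlations over the 29 arrays after the group means were removed. The 4 tested miRNAs give 6 pairs, with permutation p-values from 100000 resamples, 2-sided, adjusted over the 6. mmu-miR-329 and mmu-miR-434-3p, from hairpins 120.6 and 1.66 kb from the start of Mir127, went together with r = 0.865 (permutation p = 1e-05, the smallest the resamples can give, adjusted p = 6e-05) and rho = 0.8 (permutation p = 1e-05, adjusted p = 6e-05). Within the 4 slides r ran from 0.804 to 0.95, and leaving out the 2 arrays farthest from the median of mmu-miR-329 it was 0.82. With the share of spots well above background regressed out it was 0.874. Of all 46665 pairs of tested miRNAs 6.63% had an r at least as high, and the median r over those pairs was 0.0734. Under the 4 other scalings and corrections r ran from 0.739 to 0.963, and the share of pairs at least as high was 21.3% with the 75th percentile over all probes (median r 0.236), 11.1% with the series table, 8.63% with quantile normalization and 1.64% with normexp. For mmu-miR-329, mmu-miR-434-3p ranked second among the other 305 tested miRNAs.

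The other pairs were weaker or changed with the arrays used. mmu-miR-127 and mmu-miR-329 had r = 0.556 (permutation p = 0.0025, adjusted p = 0.0075) and rho = 0.341 (permutation p = 0.0709, adjusted p = 0.142). Without the 2 arrays farthest from the median of mmu-miR-127 this r was 0.172, so the relation rests on those arrays. mmu-miR-127 and mmu-miR-434-3p had r = 0.408 (permutation p = 0.0277, adjusted p = 0.0415) and rho = 0.226 (permutation p = 0.235, adjusted p = 0.282), and r = 0.0909 without 2 arrays, so this relation rests on them too. mmu-miR-494 had values of r below 0 with the other 3. Its r was -0.491 with mmu-miR-434-3p (permutation p = 0.00687, adjusted p = 0.0137; rho = -0.49, permutation p = 0.00796, adjusted p = 0.0239), -0.301 with mmu-miR-329 (permutation p = 0.113, adjusted p = 0.136; rho = -0.26, permutation p = 0.171, adjusted p = 0.257) and -0.0347 with mmu-miR-127 (permutation p = 0.858, adjusted p = 0.858; rho = 0.153, permutation p = 0.428, adjusted p = 0.428). Without 2 arrays these were -0.407, -0.282 and 0.0787, and within the slides the first ran from -0.69 to -0.101. With normexp background correction the r of mmu-miR-494 and mmu-miR-434-3p was 0.765, so that its sign depends on the processing. The same holds for mmu-miR-494 with mmu-miR-329, at 0.738 with normexp, and the r of mmu-miR-494 with mmu-miR-127 ran from 0.486 to 0.824 under the 4 alternatives. Normexp here added an offset of 50 to each signal before scaling. With it every pair of the 4 tested miRNAs had an r from 0.738 to 0.963. The offset and the background correction were not tested apart. Over all pairs of tested miRNAs 4.09% had an r of -0.491 or lower, and under the 4 alternatives between 28% and 84.5% were at or below the r of this pair.

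**Figure D5:**
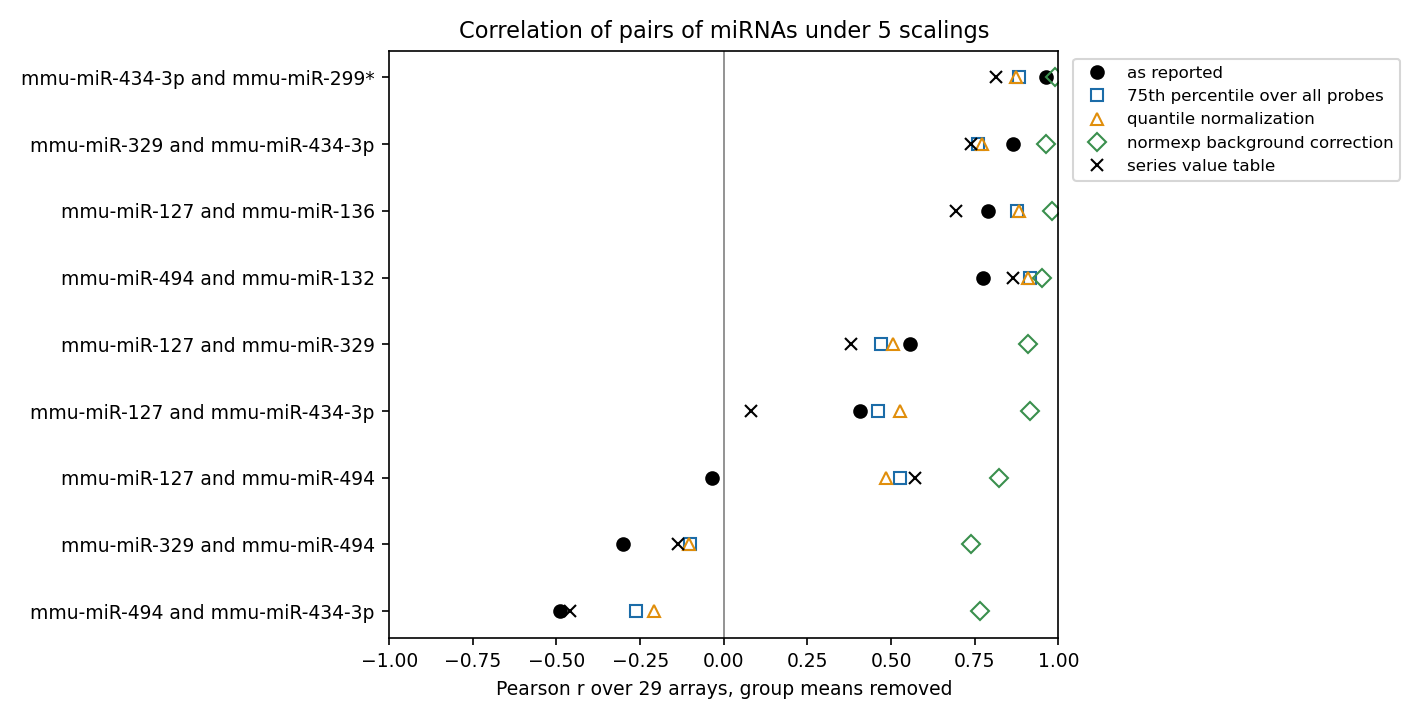
Pearson r over 29 arrays with group means removed (horizontal axis) for 9 pairs of miRNAs under the main scaling (filled circles) and 4 alternatives (open marks and crosses). mmu-miR-434-3p with mmu-miR-299*, mmu-miR-329 with mmu-miR-434-3p, and mmu-miR-127 with mmu-miR-136 stay above 0.69 in all 5, while mmu-miR-494 with mmu-miR-434-3p runs from -0.491 to 0.765. Most pairs with other miRNAs of the region are not shown.

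Among the 28 pairs of the 4 with the 7 other tested miRNAs of the region, mmu-miR-434-3p and mmu-miR-299* were closest, with r = 0.963 and rho = 0.959 (permutation p = 1e-05 for each, the smallest possible, adjusted p = 5.6e-05 and 9.33e-05). Within slides r ran from 0.936 to 0.991, without 2 arrays it was 0.948, and under the 4 other scalings and corrections shown it ran from 0.813 to 0.989. Of all pairs of tested miRNAs 1.68% had an r at least as high, and 0.227% to 8.79% under those 4. mmu-miR-127 went with mmu-miR-136, whose hairpin lies 2.481 kb from the start of Mir127 and also within the span of Rtl1, with r = 0.791 and rho = 0.658 (permutation p = 1e-05 and 0.00016, adjusted p = 5.6e-05 and 0.00064). Within slides this r ran from 0.815 to 0.982, without 2 arrays it was 0.661, and under the 4 alternatives it ran from 0.694 to 0.982. Of all pairs 9.88% had an r at least as high, and 0.489% to 14.3% under the 4 alternatives. Other pairs did not keep their values. The r of mmu-miR-434-3p with mmu-miR-1188* was 0.847, and under the same 4 alternatives it ran from 0.101 to 0.5. That of mmu-miR-434-3p with mmu-miR-485* was 0.756 and ran from -0.19 to 0.363. For mmu-miR-127 with mmu-miR-485* it was -0.0677 and ran from -0.783 to -0.175.

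Outside the region, the 3 tested miRNAs most like mmu-miR-494, the only one of the 7 detected on all 29 arrays, were the endothelial mmu-miR-126-3p (r = 0.79, rho = 0.781), mmu-miR-219-5p (r = 0.785, rho = 0.692) and mmu-miR-132 (r = 0.775, rho = 0.681). They were picked as the highest of the tested miRNAs outside the list, so the values are a description over 29 arrays, with no test. The median r of mmu-miR-494 with all tested miRNAs was -0.122. With normexp background correction the r with mmu-miR-126-3p was 0.343, while those with mmu-miR-219-5p and mmu-miR-132 were 0.947 and 0.951.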

How the data were processed

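Heart miRNAs of 30 mice were measured on 1-colour Agilent arrays on 4 slides. Per the file headers, the authors quantified their scans with Feature Extraction 10.7.3.1, and the deposited files give a background-subtracted intensity per spot on a linear scale, with flags per spot. A deposited series table of log2 values, whose scaling is not given in the sources used here, served as an alternative. Here each probe's intensity was the mean of its spots, with control and outlying spots left out. Arrays were brought to a common 75th percentile, computed over 418 probes that every array detected, and values under 16.9 were set to that floor before log2. Probes needed detection on 4 or more arrays of some group, and a miRNA was given the mean of such probes, leaving 306 miRNAs.

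Groups were fitted together in limma 3.58.1 (R 4.3.3), with 1 mean per group, 29 arrays in place of the 30 planned, 13 contrasts, 2-sided, and Benjamini-Hochberg adjustment over the 306 miRNAs. The fit was also run on simulated data with independent noise and an added shift larger than the exposure difference of any of the 4 miRNAs on any day. That run does not tell the power to find differences of the size seen here. Replicate numbers follow the order of deposit and pair no samples, and each slide held several groups. The number of arrays limits the precision. Correlations and permutation tests used Python 3.11.15 with numpy 2.4.6.

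All 7 miRNAs were named in the exposure comparisons, and elsewhere those past the threshold or else the 2 with the smallest p. The tested miRNAs of the region, the 3 miRNAs most like the members detected on all arrays, and the tissue markers were also named. The 7 miRNAs and the lists were chosen with earlier results of these data known. The planned correlation needed members detected on all arrays, of which there was 1, so that pairs of tested miRNAs were used instead, chosen after seeing the data, as was median pixel signal for normexp. The alternatives changed the scaling, background correction, floor, filter, probe choice, slide block and the arrays used. The normexp correction also added an offset of 50 before scaling.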

Additional observations from a re-analysis of the deposited data

Results flagged for a closer look

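Of 24 groups of the 4 tested miRNAs examined for a single array standing apart, 2 were picked out, both through the same mouse; chance picks about 1 in 20 groups. In vehicle day 3 replicate 5, mmu-miR-127 was at 5.957 on the log2 scale, and the next highest mouse of the group was at 5.106. In the same mouse mmu-miR-329 was at 5.653 and the next highest at 4.473. Its array had 23.8% of spots well above background, inside the range of its group from 18.4% to 27.5%. Its mmu-miR-434-3p was the highest of the group at 5.21 and its mmu-miR-494, at 5.62, lay inside the range of the others. The cause was not tested.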

How the results depend on the processing

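No paired analysis was possible because the labels give no replicate numbers, so those used here follow the order of deposit. The planned correlation over members detected on all arrays could not be made, since there was 1 such miRNA.

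For the 4 tested miRNAs, under other settings 64 differences changed sign and 1 newly passed the threshold, that of mmu-miR-329 between vehicle days 28 and 1 in a fit of only those groups. The vehicle mice of day 1 were the only group through which mmu-miR-329 passed the filter on dim signals. With 1 array left out, 31 changed sign and none newly passed; all other differences kept their sign and side. None of the sign changes came with a pass of the threshold, and unless a sentence says otherwise their cause was not tested. Signals close to background limit mmu-miR-329 and mmu-miR-434-3p most.

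With the 75th percentile over all probes the changed signs were for mmu-miR-127 0.16 (exposure on day 1) and mmu-miR-494 0.091 (exposure on day 1), -0.11 (Printex 90 day 28 against 1), -0.0064 (Printex 90 day 28 against 3). Further values were for mmu-miR-434-3p 0.049 (exposure on day 1), -0.15 (exposure on day 28), -0.022 (mean exposure), -0.018 (change in exposure effect, day 3 against 1), -0.19 (change in exposure effect, day 28 against 1), -0.11 (Printex 90 day 28 against 3) and mmu-miR-329 -0.0054 (exposure on day 28). Others were for mmu-miR-299* -0.012 (mean exposure) and mmu-miR-485* -0.014 (mean exposure). Quantile normalization gave changed signs for mmu-miR-127 0.20 (exposure on day 1), -0.017 (change in exposure effect, day 28 against 3) and mmu-miR-494 0.14 (exposure on day 1), -0.14 (Printex 90 day 28 against 1). Further values were for mmu-miR-434-3p 0.12 (exposure on day 1), -0.16 (exposure on day 28), -0.013 (mean exposure), -0.11 (change in exposure effect, day 3 against 1), -0.28 (change in exposure effect, day 28 against 1), 0.025 (vehicle day 3 against 1), -0.081 (Printex 90 day 28 against 3) and mmu-miR-329 -0.00024 (exposure on day 28). Others were for mmu-miR-299* -0.022 (mean exposure). With normexp the changed signs were for mmu-miR-127 0.13 (exposure on day 1), 0.014 (exposure on day 28), 0.022 (mean exposure) and mmu-miR-329 0.00087 (exposure on day 1), -0.0029 (exposure on day 3), 0.029 (mean exposure), -0.0038 (change in exposure effect, day 3 against 1). Further values were for mmu-miR-494 0.088 (exposure on day 1) and mmu-miR-434-3p 0.10 (exposure on day 1), -0.033 (exposure on day 3), -0.13 (change in exposure effect, day 3 against 1), -0.048 (change in exposure effect, day 28 against 1), 0.084 (change in exposure effect, day 28 against 3), 0.056 (vehicle day 3 against 1). Others were for mmu-miR-136 0.035 (mean exposure). With the total gene signal of the scanner software the changed signs were for mmu-miR-127 0.090 (exposure on day 1), -0.040 (change in exposure effect, day 28 against 3). With the deposited series table the changed signs were for mmu-miR-127 0.027 (exposure on day 1), -0.0087 (change in exposure effect, day 28 against 3) and mmu-miR-494 0.074 (exposure on day 1), 0.047 (exposure on day 3), 0.13 (Printex 90 day 3 against 1), -0.073 (Printex 90 day 28 against 1), -0.20 (Printex 90 day 28 against 3). Further values were for mmu-miR-434-3p 0.012 (exposure on day 1), -0.012 (exposure on day 3), -0.024 (change in exposure effect, day 3 against 1), 0.027 (change in exposure effect, day 28 against 3) and mmu-miR-329 -0.0045 (exposure on day 28). Others were for mmu-miR-299* -0.0068 (mean exposure). With the floor at the 5th percentile the changed signs were for mmu-miR-434-3p -0.013 (exposure on day 3), -0.010 (mean exposure), 0.028 (change in exposure effect, day 28 against 3). Without scaling the changed signs were for mmu-miR-434-3p -0.036 (exposure on day 28), -0.086 (mean exposure), -0.043 (Printex 90 day 28 against 3) and mmu-miR-127 -0.096 (change in exposure effect, day 28 against 3). Further values were for mmu-miR-494 -0.037 (vehicle day 28 against 1), -0.048 (Printex 90 day 28 against 1) and mmu-miR-1188* -0.0036 (mean exposure). Others were for mmu-miR-299* -0.070 (mean exposure) and mmu-miR-485* -0.032 (mean exposure). With slide as a fixed block the changed signs were for mmu-miR-434-3p -0.0049 (mean exposure). Without the dim array vehicle day 3 replicate 4 the changed signs were for mmu-miR-434-3p -0.024 (mean exposure), 0.0023 (change in exposure effect, day 28 against 3) and mmu-miR-1188* -0.011 (mean exposure). Further values were for mmu-miR-299* -0.020 (mean exposure) and mmu-miR-485* -0.047 (mean exposure). With no filter the changed signs were for mmu-miR-434-3p 0.051 (change in exposure effect, day 28 against 3).

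The count of miRNAs past the threshold for vehicle day 28 minus day 1 was 6 and became 0 with no scaling, 1 with 75th percentile over all probes, 2 with series value table or only the groups compared, 3 with quantile normalization or normexp background correction. The count of miRNAs past the threshold for vehicle day 28 minus day 3 was 2 and became 0 with no scaling or normexp background correction or floor at the 5th percentile, 1 with 75th percentile over all probes or quantile normalization or brightest probe or series value table or without the dim arrays or only the groups compared, 4 with total gene signal or slide as a fixed block or slide as a random block, 5 with no filter. The count of miRNAs past the threshold for Printex 90 day 28 minus day 1 was 4 and became 0 with no scaling or normexp background correction, 1 with 75th percentile over all probes or quantile normalization or series value table or only the groups compared, 2 with brightest probe. The count of miRNAs past the threshold for Printex 90 day 28 minus day 3 was 1 and became 0 with no scaling or normexp background correction or floor at the 5th percentile or detected on every array or only the groups compared, 2 with no filter or slide as a fixed block.

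With 1 array left out the counts ran from 3 to 6 for vehicle day 28 minus day 1 (3 without vehicle day 28 replicate 4), 1 to 4 for vehicle day 28 minus day 3 (1 without vehicle day 28 replicate 1, 1 without vehicle day 3 replicate 2, 4 without vehicle day 28 replicate 2, 1 without vehicle day 28 replicate 3, 1 without vehicle day 3 replicate 4, 4 without vehicle day 3 replicate 5, 1 without vehicle day 28 replicate 4, 1 without vehicle day 3 replicate 6), 1 to 4 for Printex 90 day 28 minus day 1 (2 without Printex 90 day 1 replicate 1, 2 without Printex 90 day 28 replicate 1, 1 without Printex 90 day 28 replicate 2, 1 without Printex 90 day 28 replicate 3, 2 without Printex 90 day 1 replicate 2, 2 without Printex 90 day 1 replicate 3, 1 without Printex 90 day 28 replicate 4, 2 without Printex 90 day 1 replicate 5, 2 without Printex 90 day 28 replicate 5). Differences that changed sign then ran from -0.081 to 0.062 for mmu-miR-127 (exposure on day 1), -0.19 to 0.046 for mmu-miR-494 (exposure on day 1), -0.30 to 0.018 for mmu-miR-127 (exposure on day 3), -0.16 to 0.35 for mmu-miR-329 (exposure on day 3). Others ran from -0.028 to 0.25 for mmu-miR-434-3p (exposure on day 3), -0.17 to 0.099 for mmu-miR-127 (exposure on day 28), -0.029 to 0.26 for mmu-miR-329 (exposure on day 28), -0.11 to 0.10 for mmu-miR-434-3p (exposure on day 28). Further ranges were -0.16 to 0.011 for mmu-miR-329 (mean exposure), -0.041 to 0.052 for mmu-miR-434-3p (mean exposure), -0.072 to 0.24 for mmu-miR-127 (change in exposure effect, day 28 against 3), -0.23 to 0.055 for mmu-miR-434-3p (change in exposure effect, day 28 against 3). Also changing sign were -0.075 to 0.16 for mmu-miR-494 (Printex 90 day 28 against 1), -0.036 to 0.24 for mmu-miR-434-3p (Printex 90 day 28 against 3), -0.022 to 0.13 for mmu-miR-1188* (mean exposure), -0.076 to 0.019 for mmu-miR-136 (mean exposure). The remaining ranges were -0.023 to 0.065 for mmu-miR-299* (mean exposure), -0.057 to 0.42 for mmu-miR-376c (mean exposure), -0.052 to 0.11 for mmu-miR-485* (mean exposure). The correlation of mmu-miR-494 and mmu-miR-434-3p was 0.765 with normexp.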

Other observations

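The miRNA mmu-miR-376c of the same region ran from 4.10 to 8.68 on the log2 scale between mice of a single group, Printex 90 day 1. Its highest values were 8.68 in Printex 90 day 1 replicate 3 and 7.44 in Printex 90 day 3 replicate 1. Then came 7.43 in vehicle day 28 replicate 4, 7.42 in vehicle day 1 replicate 3 and 7.41 in vehicle day 1 replicate 2. The next was 7.34 in vehicle day 3 replicate 1. The 5 arrays at the floor came from vehicle mice of all 3 days and 1 Printex 90 mouse of day 3. These 5 arrays were on slides 3 and 4, but values just above the floor also occurred on the other slides. They were 4.10 in Printex 90 day 1 replicate 4 (slide 1) and 4.11 in vehicle day 3 replicate 6 (slide 2). The high value of 7.44 came from slide 3. Its correlation over 29 arrays was 0.553 with mmu-miR-434-3p, 0.403 with mmu-miR-329, 0.363 with mmu-miR-127 and -0.16 with mmu-miR-494. Under the 4 other scalings and corrections it lay between 0.0266 and 0.339 with mmu-miR-434-3p and between 0.0231 and 0.171 with mmu-miR-329. It lay between -0.0851 and 0.166 with mmu-miR-127 and between -0.407 and -0.00454 with mmu-miR-494. The cause was not tested.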
